A study of Schizosaccharomyces japonicus with 6 samples.

Results

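The genes described here make, desaturate, esterify and move the sterols, acyl chains, phospholipids and sphingolipids of the membranes of the fission yeast *Schizosaccharomyces japonicus*. They were chosen by words in the gene descriptions of the deposited table (sterol, fatty acid, phospholipid, ceramide, sphingolipid, phosphatidyl or acyltransferase) or by an *erg* symbol followed by a number. Descriptions naming a kinase, transporter, mannosyltransferase or histone and symbols starting with *mug* or *meu* were left out. This gave 61 of the 5272 genes in the table, from 72 that matched before the exclusions. By description, 28 were sterol genes, 13 phospholipid genes, 9 other acyltransferases, 6 sphingolipid genes, 3 fatty acid synthesis genes and 2 genes of the glycosylphosphatidylinositol (GPI) anchor. No measured value entered the rule.

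RNA-seq was carried out on vegetative cells of 3 strains, with 2 biological replicates each: *pab2*Δ, *clr4-1* and WT. The *pab2*Δ strain lacks the nuclear poly(A)-binding protein Pab2 through gene replacement. *clr4-1* carries a temperature-sensitive allele of *clr4*, the histone H3 Lys9 methyltransferase gene, made by random mutagenesis, and WT, the strain NIG5572, has neither change. All 3 strains were grown in YES rich medium at 30°C, so *clr4-1* was sampled as a viable mutant with an altered enzyme and not as a deletion. Each genotype is represented by a single strain, and the 2 *pab2*Δ columns carry no replicate number, so they are given in the order of the table.

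Ergosterol is the main sterol of fungal membranes. It is built from acetyl-CoA through mevalonate and squalene, and the later steps consume oxygen. In *S. pombe* the membrane-bound transcription factor Sre1 raises the expression of these genes when sterols or oxygen run low. Acyl chains made by fatty acid synthase are joined to glycerol by acyltransferases to give phospholipids and storage fat, and to sphingoid bases to give ceramides. *S. japonicus* is known for phospholipids whose acyl tails are markedly unequal in length. The comparisons ask how the loss of Pab2 and the *clr4-1* mutation bear on the transcripts of this metabolism in growing cells.

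Values are FPKM, sequenced fragments per kilobase of transcript relative to the depth of a library. The table does not name this unit, which was taken from the values themselves. The summed FPKM was 920550 and 910209 in *pab2*Δ, 1080821 and 1063580 in *clr4-1*, and 1068001 and 1047611 in WT. The number of reads is unknown, so no counting error can be given. Both *pab2*Δ libraries list *pab2* at 0, against 145 and 142 FPKM in WT. *clr4* transcript was at 19.6 and 23.3 FPKM in *clr4-1*, against 9.34 and 9.48 FPKM in WT. Every lipid gene was detected in all 6 libraries, between 4.17 and 333 FPKM. The median difference between the replicates of a strain over the 61 genes was 0.055 in *pab2*Δ, 0.049 in *clr4-1* and 0.047 in WT on the log2(FPKM + 1) scale. In such bulk samples, fewer cells expressing a gene and less RNA of it per cell cannot be told apart.

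Genes were tested with limma on log2(FPKM + 1) over all 6 libraries and called at an adjusted p-value under 0.05. All 61 lipid genes were among the 4899 genes tested, those with a mean of at least 1 FPKM. One property of the table bears on every direction given for *pab2*Δ. Over all genes tested, the median log2 fold change in *pab2*Δ vs WT was 0.19 as deposited and -0.0081 after scaling between libraries by the trimmed mean of M values (TMM). In *clr4-1* vs WT it was -0.064 as deposited and -0.0018 after TMM scaling. A gene is therefore said to rise or fall below where it was called in that direction at both scalings. Other calls that are given are named with their scaling. Calls made at 1 scaling only are not all listed, so a gene without a stated call is not thereby unchanged.

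In WT, the lipid genes had a median level of 46.0 FPKM, with 14 of them at or above 100 FPKM and 5 below 10 FPKM. The highest was *erg25*, the C-4 methylsterol oxidase, at 281 FPKM on average, followed by *SJAG_01238*, a mitochondrial type II fatty acid synthase component, at 247 FPKM, *erg2*, the C-8 sterol isomerase, at 210 FPKM, *erg11*, the sterol 14-demethylase, at 196 FPKM, and *cho1*, a phospholipid methyltransferase, at 189 FPKM. No neighbours among these top 5 overlapped between their WT libraries. Further down the order, 27 of the 60 neighbouring pairs did overlap, so their ranks were not resolved. The lowest mean, 5.01 FPKM, belonged to *SJAG_03076*, described as a sphingolipid biosynthesis protein.

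In *pab2*Δ, lipid genes were called in both directions, as were the genes tested as a whole. The largest rise was in *erg32*, a C-5 sterol desaturase gene, and the largest fall in *erg1*, the squalene monooxygenase gene. As deposited, 27 of the 61 lipid genes were called higher, against 53.8% of all genes tested, and 15 lower, against 19.9%. After TMM scaling 17 were called higher (32.8% of all genes) and 29 lower (34.5%). The median log2 fold change of the lipid genes was 0.12 as deposited and -0.092 after TMM scaling, below the median of all genes each time. All 17 genes higher after TMM scaling were among the 27, and all 15 lower as deposited were among the 29. No gene was called in opposite directions as deposited and after TMM scaling. With equal FPKM totals 43 were called higher (71% of all genes) and 8 lower (11.5%). That scaling kept all 17 as higher and 8 of the 15 as lower, the calls of *aur1*, *cho2*, *erg24*, *erg31*, *erg5*, *osh2* and *plh1* being lost. Called lower after TMM scaling but higher with equal totals were *SJAG_01238*, *dga1*, *erg4*, *erg6*, *erg9*, *fas1*, *fas2*, *gpi3*, *pps1*, *psd2* and *slc1*. Libraries of *pab2*Δ and WT did not overlap for 34 genes with higher values in *pab2*Δ (62% of all genes) and 19 with lower values (25.8%). The share of the summed FPKM that came from the 61 genes was 0.464% and 0.472% in *pab2*Δ, 0.351% in each *clr4-1* library, and 0.376% and 0.389% in WT.

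**Figure D1:**
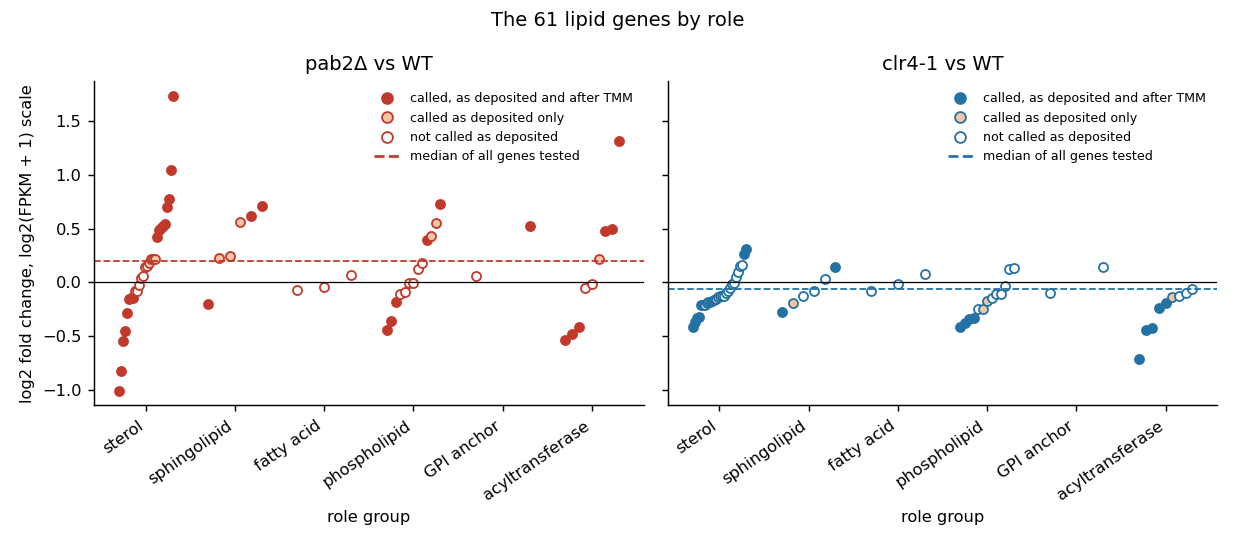
Log2 fold change of each of the 61 lipid genes on the log2(FPKM + 1) scale, by role group, for *pab2*Δ vs WT (left) and *clr4-1* vs WT (right), each point a gene and the dashed line the median of all genes tested. Sterol genes in *pab2*Δ ran from -1.0 (*erg1*) to 1.73 (*erg32*), while the lipid genes of *clr4-1* lay between -0.71 (*ale1*) and 0.31 (*erg2*).

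The sterol pathway begins with 2 acetyl-CoA units. *erg10*, the thiolase that joins them, was at 25.4 and 24.3 FPKM in *pab2*Δ, 45.4 and 50.1 FPKM in *clr4-1*, against 44.8 and 44.4 FPKM in WT. The *pab2*Δ libraries lay below all the others, and *erg10* fell in *pab2*Δ (log2 fold change -0.82, SE 0.054, limma adjusted p = 5.8e-05), a mean ratio to WT of 0.557. In *clr4-1* the log2 fold change was 0.10 (limma adjusted p = 0.203). *erg9*, squalene synthase, which commits the pathway to sterols, was at 140 and 148 FPKM in *pab2*Δ, 126 and 126 FPKM in *clr4-1*, against 149 and 143 FPKM in WT. Here *pab2*Δ overlapped WT and its call depended on the scaling (log2 fold change -0.02 as deposited and -0.24 after TMM, limma adjusted p = 0.578 and 0.00223), while the gene fell in *clr4-1* by 0.21 on the log2 scale.

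*erg1* encodes squalene monooxygenase, the first oxygen-dependent enzyme of sterol synthesis and the target of the antifungal terbinafine. It stood at 38.4 and 38.7 FPKM in *pab2*Δ, 70.5 and 67.6 FPKM in *clr4-1*, against 77.2 and 79.5 FPKM in WT. The replicates of *pab2*Δ were nearly equal and far below the other 4 libraries. This was the largest fall among the lipid genes (log2 fold change -1.0, SE 0.036, limma adjusted p = 6.24e-06), a mean ratio to WT of 0.492, and after TMM scaling the log2 fold change was -1.21. In *clr4-1* it was lower by 0.18 on the log2 scale (limma adjusted p = 0.0115), a call that was lost without WT replicate 2 (-0.16, adjusted p = 0.0671) and without *clr4-1* replicate 2 (-0.15, adjusted p = 0.0545). *erg7*, lanosterol synthase, which closes the sterol rings, was at 24.2 and 26.0 FPKM in *pab2*Δ, 23.4 and 21.7 FPKM in *clr4-1*, against 24.6 and 23.3 FPKM in WT, with overlapping libraries and no call in either mutant (limma adjusted p = 0.362 in *pab2*Δ and 0.299 in *clr4-1*).

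*erg11* encodes the sterol 14-demethylase, the target of azole antifungals. It was at 142 and 144 FPKM in *pab2*Δ, 196 and 193 FPKM in *clr4-1*, against 194 and 198 FPKM in WT. It fell in *pab2*Δ (log2 fold change -0.45, SE 0.027, limma adjusted p = 4.05e-05), whereas the *clr4-1* and WT libraries overlapped (-0.01, adjusted p = 0.746). *erg24*, the C-14 sterol reductase that acts on the product of Erg11, was at 42.0 and 42.3 FPKM in *pab2*Δ, 40.7 and 41.1 FPKM in *clr4-1*, against 46.5 and 47.1 FPKM in WT. Both mutants lay slightly below WT (log2 fold changes -0.15 in *pab2*Δ and -0.19 in *clr4-1*, limma adjusted p = 0.00629 and 0.00615), but with equal FPKM totals the *pab2*Δ value was 0.057 and not called (adjusted p = 0.209).

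The next steps remove the methyl groups at C-4, through an oxidase (*erg25*), a dehydrogenase (*erg26*) and a ketoreductase (*erg27*), which in budding yeast are held together by Erg28. *erg25* was at 320 and 333 FPKM in *pab2*Δ, 254 and 260 FPKM in *clr4-1*, against 276 and 286 FPKM in WT. *erg26* was at 219 and 210 FPKM in *pab2*Δ, 160 and 158 FPKM in *clr4-1*, against 183 and 185 FPKM in WT. In both genes the strains stood in the order *pab2*Δ, WT, *clr4-1* with no overlap, but the excess in *pab2*Δ (log2 fold changes 0.21 and 0.22) was close to that of the median gene and was no longer called after TMM scaling (0.0019 and 0.0065, limma adjusted p = 0.966 and 0.863). *erg26* fell in *clr4-1* (-0.21, limma adjusted p = 0.00416).

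*erg27* was at 78.7 and 73.7 FPKM in *pab2*Δ, 59.9 and 57.3 FPKM in *clr4-1*, against 56.5 and 56.4 FPKM in WT, and it rose in *pab2*Δ (log2 fold change 0.43, limma adjusted p = 0.000316). *erg28* was at 59.8 and 58.1 FPKM in *pab2*Δ, 51.7 and 44.8 FPKM in *clr4-1*, against 59.8 and 65.0 FPKM in WT. Its *clr4-1* libraries were the lowest (-0.37, limma adjusted p = 0.0137), although the call was lost without WT replicate 2 (-0.31, adjusted p = 0.0802). Within this unit, then, *erg27* was the member that rose in *pab2*Δ at both scalings.

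The last steps modify the ring and the side chain. *erg6*, the sterol 24-C-methyltransferase, which adds the methyl group that sets fungal sterols apart from cholesterol, was at 140 and 144 FPKM in *pab2*Δ, 135 and 135 FPKM in *clr4-1*, against 147 and 153 FPKM in WT. Its log2 fold change in *pab2*Δ was -0.08 as deposited and -0.29 after TMM scaling (limma adjusted p = 0.073 and 0.000463). *erg2*, the C-8 sterol isomerase, was at 315 and 300 FPKM in *pab2*Δ, 266 and 257 FPKM in *clr4-1*, against 206 and 215 FPKM in WT. It rose in both mutants, by 0.55 in *pab2*Δ and 0.31 in *clr4-1* on the log2 scale (SE 0.038 each, limma adjusted p = 7.36e-05 and 0.00238), without overlap between any 2 strains.

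*erg5*, the C-22 sterol desaturase, was at 127 and 126 FPKM in *pab2*Δ, 124 and 124 FPKM in *clr4-1*, against 143 and 138 FPKM in WT. It fell in both (log2 fold changes -0.15 and -0.17, limma adjusted p = 0.00406 and 0.00621), although in *pab2*Δ the value with equal FPKM totals was 0.056 and not called (adjusted p = 0.119). *erg4*, the final reductase of the pathway, was at 62.4 and 63.4 FPKM in *pab2*Δ, 56.7 and 55.2 FPKM in *clr4-1*, against 60.7 and 61.7 FPKM in WT. Its direction in *pab2*Δ turned with the scaling, from a log2 fold change of 0.04 as deposited (limma adjusted p = 0.301) to -0.17 after TMM (adjusted p = 0.00373).

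C-5 desaturation, which introduces the double bond that completes the conjugated ring system of ergosterol, is encoded by a pair of genes, *erg31* and *erg32*. *erg32* was at 77.2 and 83.1 FPKM in *pab2*Δ, 21.7 and 20.9 FPKM in *clr4-1*, against 23.3 and 23.5 FPKM in WT. *erg31* was at 106 and 108 FPKM in *pab2*Δ, 117 and 118 FPKM in *clr4-1*, against 129 and 133 FPKM in WT. In *pab2*Δ the genes went in opposite directions. *erg32* rose (log2 fold change 1.73, SE 0.047, limma adjusted p = 2.42e-06, and 1.52 after TMM scaling), a mean ratio to WT of 3.42. *erg31* fell by 0.29 on the log2 scale (limma adjusted p = 0.0003), and by 0.50 after TMM scaling, although with equal FPKM totals the value was -0.078 and not called (adjusted p = 0.0981).

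**Figure D2:**
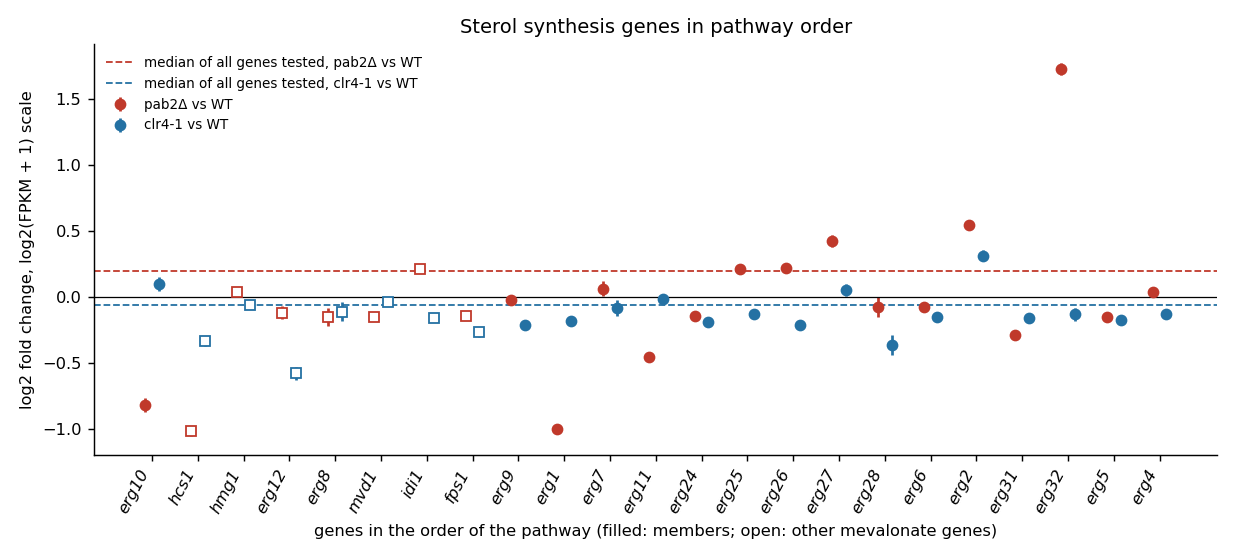
Log2 fold change (points) with standard error (bars) on the log2(FPKM + 1) scale for sterol synthesis genes in pathway order, *pab2*Δ vs WT in red and *clr4-1* vs WT in blue, with mevalonate genes outside the 61 as open squares and dashed lines at the median of all genes tested. In *pab2*Δ the values for *erg10*, *hcs1*, *erg1* and *erg11* lie far below 0 and that for *erg32* lies at 1.73, while *clr4-1* values lie between -0.58 and 0.31.

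A share within a library does not change with the scaling between libraries, so the 2 desaturase genes were also compared in that way, a comparison chosen after their values were seen. *erg32* made up 42.1% and 43.4% of the summed *erg31* and *erg32* FPKM in *pab2*Δ, 15.7% and 15.1% in *clr4-1*, and 15.3% and 15.03% in WT. The ratio of *erg32* to *erg31* was thus higher in *pab2*Δ by 2.06 on the log2 scale and differed by 0.02 in *clr4-1*. The summed level of both genes was 184 and 192 FPKM in *pab2*Δ, 138 and 138 FPKM in *clr4-1*, against 153 and 156 FPKM in WT. How reads shared by similar genes were counted is not given in the sources used here, so the split between this pair is uncertain to that extent.

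**Figure D3:**
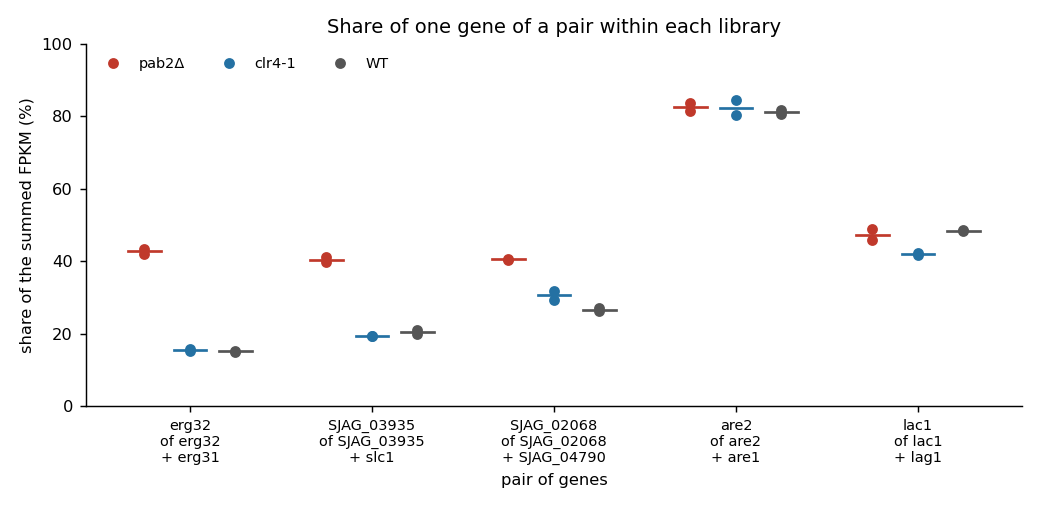
Share of the first-named gene in the summed FPKM of a pair of related genes, in percent, with each point a library and each bar the mean of a strain. *erg32* averaged 42.7% of its pair in *pab2*Δ, 15.4% in *clr4-1* and 15.2% in WT, while *are2* stayed near 82% of its pair in each strain.

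Summed over the 15 genes from *erg9* to *erg4*, the pathway stood at 1892 and 1898 FPKM in *pab2*Δ, 1703 and 1679 FPKM in *clr4-1*, against 1775 and 1808 FPKM in WT. Without *erg32* the sums were 1815 and 1815 FPKM in *pab2*Δ, against 1752 and 1785 FPKM in WT. As deposited the *pab2*Δ sums lay above those of WT, and by less when *erg32* was left out. TMM scaling divides FPKM by 1.12 in each *pab2*Δ library and by 0.967 in each WT library. It places the *pab2*Δ sums below those of WT, so the direction of the sums depended on the scaling. The upstream genes of the mevalonate pathway outside the 61 were taken as a list of 8. In *pab2*Δ 2 were called higher and 3 lower as deposited, against 53.8% and 19.9% of all genes. TMM scaling left 0 higher and 6 lower, against 32.8% and 34.5%. It moved the median log2 fold change of the list in *pab2*Δ from -0.13 to -0.34. *hcs1*, which encodes HMG-CoA synthase, the step after Erg10, was at 64.8 and 68.3 FPKM in *pab2*Δ, 106 and 109 FPKM in *clr4-1*, against 134 and 137 FPKM in WT (log2 fold change -1.02 in *pab2*Δ, limma adjusted p = 6.31e-06). *hmg1*, the HMG-CoA reductase gene, was at 42.1 and 42.1 FPKM in *pab2*Δ, against 41.0 and 40.9 FPKM in WT.

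Sterols that are not placed in membranes are esterified and stored in lipid droplets. Both predicted acyl-CoA-sterol acyltransferase genes rose in *pab2*Δ. *are2* was at 37.1 and 41.6 FPKM in *pab2*Δ, 22.7 and 20.7 FPKM in *clr4-1*, against 23.3 and 24.2 FPKM in WT (log2 fold change in *pab2*Δ 0.70, SE 0.071, limma adjusted p = 0.000312). *are1*, at 8.35 and 8.11 FPKM in *pab2*Δ, against 5.16 and 5.86 FPKM in WT, rose by 0.51 (adjusted p = 0.00629). Their proportions did not move with the strain: *are2* made up between 80.3% and 84.5% of the pair over all 6 libraries.

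Hydrolysis of stored sterol esters is the predicted role of 3 further members, all described as triglyceride lipase-cholesterol esterases. *SJAG_02068* was at 35.1 and 35.8 FPKM in *pab2*Δ, 20.6 and 19.7 FPKM in *clr4-1*, against 16.3 and 17.0 FPKM in WT. It rose in *pab2*Δ (log2 fold change 1.05, SE 0.042, limma adjusted p = 9.79e-06) and to a smaller degree in *clr4-1* (0.26, adjusted p = 0.00605). *SJAG_00158*, at 32.1 and 31.3 FPKM in *pab2*Δ, against 23.0 and 21.7 FPKM in WT, rose in *pab2*Δ by 0.49. *SJAG_04790*, at 51.7 and 52.4 FPKM in *pab2*Δ, against 44.0 and 47.9 FPKM in WT, was called higher as deposited (0.18) but not after TMM scaling (-0.03), nor as deposited without WT replicate 1 (0.12, adjusted p = 0.137) or without either *pab2*Δ library (adjusted p = 0.0928 and 0.116). Genes of both esterification and ester hydrolysis were thus among those that rose in *pab2*Δ.

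*sre1*, the sterol regulatory element binding protein gene, was at 26.5 and 27.9 FPKM in *pab2*Δ, 16.9 and 15.8 FPKM in *clr4-1*, against 18.4 and 19.0 FPKM in WT. It rose in *pab2*Δ (log2 fold change 0.52, SE 0.052, limma adjusted p = 0.000297). In *clr4-1* it was lower as deposited (-0.18, adjusted p = 0.0377) but not called after TMM scaling (-0.12, adjusted p = 0.117), with adjusted p-values as deposited between 0.0613 and 0.155 when either WT library, either *pab2*Δ library or *clr4-1* replicate 2 was left out. The list of 12 other genes of this system, known from *S. pombe*, held the Sre1 partner *scp1*, the Dsc ubiquitin ligase needed for the cleavage that frees Sre1 from the membrane, and the regulators *ofd1* and *nro1*. Of these, 8 were called higher and 2 lower in *pab2*Δ as deposited, and 5 higher and 3 lower after TMM scaling, where the shares of all genes were 53.8% and 19.9%, and 32.8% and 34.5%. *scp1* was at 19.2 and 19.1 FPKM in *pab2*Δ, against 12.8 and 12.3 FPKM in WT (log2 fold change 0.57, and 0.37 after TMM scaling). *ofd1* and *nro1*, which in *S. pombe* control the degradation of Sre1, were both lower in *pab2*Δ (-0.15 and -0.19).

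Genes of oxysterol-binding proteins, which carry sterols and other lipids between membranes, were called in both directions as well. *oss1* was at 31.4 and 29.5 FPKM in *pab2*Δ, 16.0 and 16.5 FPKM in *clr4-1*, against 17.5 and 17.3 FPKM in WT, and it rose in *pab2*Δ (log2 fold change 0.78, SE 0.046, limma adjusted p = 3.82e-05). *osh42* was at 44.5 and 45.5 FPKM in *pab2*Δ, 49.8 and 48.6 FPKM in *clr4-1*, against 65.5 and 66.2 FPKM in WT, and it fell in both mutants (-0.54 and -0.41, limma adjusted p = 4.08e-05 and 0.000526). *osh2* was at 32.9 and 32.3 FPKM in *pab2*Δ, 28.3 and 29.0 FPKM in *clr4-1*, against 36.7 and 35.5 FPKM in WT. It fell in *clr4-1* (-0.32), while its call in *pab2*Δ (-0.14, adjusted p = 0.0138) was lost without WT replicate 1 (-0.12, adjusted p = 0.076), without the second *pab2*Δ library (-0.13, adjusted p = 0.0669) and with equal FPKM totals (0.058, adjusted p = 0.207). *osh3* was at 13.5 and 12.9 FPKM in *pab2*Δ, 9.07 and 8.31 FPKM in *clr4-1*, against 11.1 and 11.2 FPKM in WT. Its excess in *pab2*Δ (0.22) was not called after TMM scaling (0.02), and its deficit in *clr4-1* (-0.33, limma adjusted p = 0.00913) missed the threshold without WT replicate 2 (-0.32, adjusted p = 0.0531). *osh41* and *osh6* were not called in either mutant as deposited (log2 fold changes from -0.05 to 0.16), but in *pab2*Δ *osh41* was called without WT replicate 2 (0.21, adjusted p = 0.0471) and *osh6* without the first *pab2*Δ library (0.28, adjusted p = 0.0394).

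**Figure D4:**
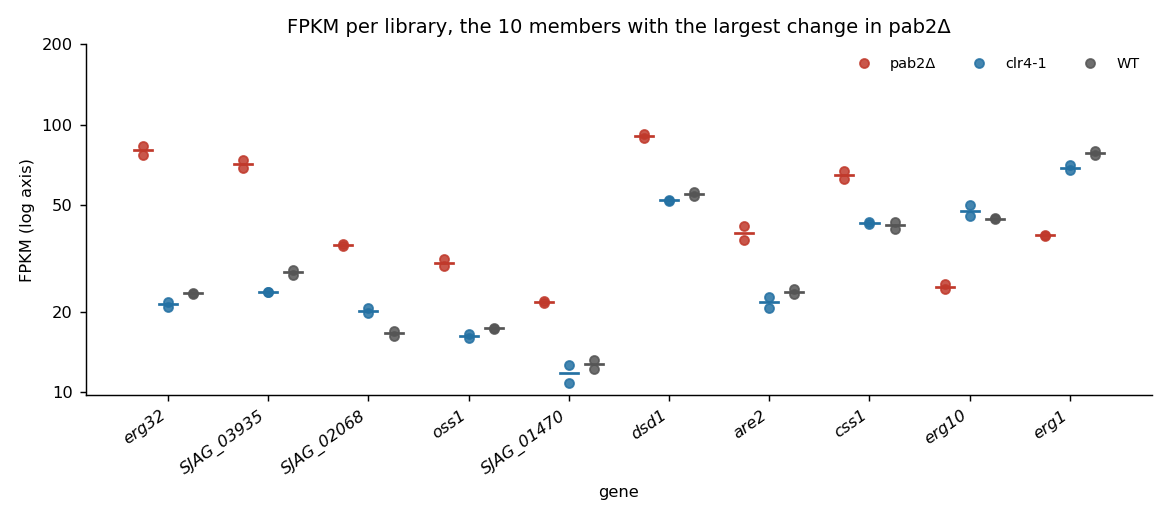
FPKM in each library (points, log axis) and strain mean (bars) for the 10 lipid genes with the largest called change in *pab2*Δ vs WT. In the 8 genes on the left both *pab2*Δ libraries lie above the other 4, and in *erg10* and *erg1* on the right both lie below.

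Among the 9 acyltransferases, 3 rose and 3 fell in *pab2*Δ, against 32.8% and 20% of all genes called higher and lower both as deposited and after TMM scaling. *SJAG_03935*, a predicted 1-acylglycerol-3-phosphate acyltransferase, which would add the second acyl chain of a phospholipid, was at 73.8 and 68.7 FPKM in *pab2*Δ, 23.7 and 23.6 FPKM in *clr4-1*, against 27.4 and 28.8 FPKM in WT. It rose in *pab2*Δ (log2 fold change 1.31, SE 0.048, limma adjusted p = 6.64e-06), a mean ratio to WT of 2.54, while in *clr4-1* it was lower by 0.24 on the log2 scale (adjusted p = 0.0118), a call lost without WT replicate 2 (-0.20, adjusted p = 0.0694) or without either *clr4-1* library (adjusted p = 0.0573 and 0.0609). *slc1*, with the same predicted activity, was at 106 and 105 FPKM in *pab2*Δ, 98.8 and 99.3 FPKM in *clr4-1*, against 111 and 108 FPKM in WT. In *pab2*Δ *slc1* was not called as deposited and was called lower after TMM scaling (-0.27, limma adjusted p = 0.000429). In this pair, also picked after its values were seen, the rise was in the less abundant gene. *SJAG_03935* made up 41.1% and 39.6% of the summed FPKM in *pab2*Δ, 19.3% and 19.2% in *clr4-1*, and 19.9% and 21.1% in WT. Not all pairs did so, since *are1* and *are2* both rose. How shared reads were counted is not given for this pair either, so its split is uncertain too.

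*ale1*, a predicted membrane-bound O-acyltransferase, moved the other way. It was at 31.7 and 33.0 FPKM in *pab2*Δ, 28.7 and 28.3 FPKM in *clr4-1*, against 45.1 and 49.5 FPKM in WT. It fell in both mutants, by 0.54 in *pab2*Δ and by 0.71 in *clr4-1* on the log2 scale (SE 0.053 each, limma adjusted p = 0.000287 and 0.000471). *sct1*, a predicted glycerol-3-phosphate acyltransferase that adds the first acyl chain, was at 30.9 and 32.0 FPKM in *pab2*Δ, 19.5 and 19.0 FPKM in *clr4-1*, against 22.3 and 21.8 FPKM in WT. It was among the genes with opposite calls, higher in *pab2*Δ (0.50, adjusted p = 0.000118) and lower in *clr4-1* (-0.19, adjusted p = 0.014). The call in *clr4-1* was lost without either WT library (adjusted p = 0.0744 and 0.0536) and without *clr4-1* replicate 2 (adjusted p = 0.0671).

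The ceramide synthase genes *lac1* and *lag1*, described as sphingosine N-acyltransferases, both fell in *pab2*Δ. *lac1* was at 38.4 and 40.0 FPKM in *pab2*Δ, 39.6 and 40.9 FPKM in *clr4-1*, against 53.9 and 55.7 FPKM in WT (log2 fold changes -0.47 and -0.44, limma adjusted p = 0.000138 and 0.000845). *lag1* was at 45.5 and 41.7 FPKM in *pab2*Δ, 55.4 and 56.0 FPKM in *clr4-1*, against 57.7 and 59.0 FPKM in WT, lower in *pab2*Δ by 0.41 (adjusted p = 0.000501) and not called in *clr4-1* (-0.07, adjusted p = 0.311). *lac1* therefore made up 41.7% and 42.2% of the pair in *clr4-1*, against 48.3% and 48.6% in WT, and 45.8% and 48.9% in *pab2*Δ.

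Of the 6 sphingolipid genes, 5 were called higher and 1 lower in *pab2*Δ as deposited, against 53.8% and 19.9% of all genes tested, and 2 higher and 1 lower after TMM scaling, against 32.8% and 34.5%. *dsd1*, the dihydroceramide delta-4 desaturase, was at 92.6 and 88.9 FPKM in *pab2*Δ, 52.0 and 52.3 FPKM in *clr4-1*, against 54.2 and 56.0 FPKM in WT (log2 fold change in *pab2*Δ 0.71, SE 0.035, limma adjusted p = 1.99e-05). *css1*, a predicted phospholipase C that breaks down inositol phosphosphingolipids, was at 67.1 and 62.9 FPKM in *pab2*Δ, 43.4 and 42.6 FPKM in *clr4-1*, against 40.8 and 43.2 FPKM in WT (0.62, adjusted p = 9.8e-05). In contrast, *aur1*, the inositol phosphorylceramide synthase, fell by 0.20 (43.3 and 44.8 FPKM in *pab2*Δ, against 52.3 and 49.1 FPKM in WT), a call that was lost with equal FPKM totals (0.0078, adjusted p = 0.878). *kei1*, its regulatory subunit, was at 128 and 127 FPKM in *pab2*Δ, 123 and 115 FPKM in *clr4-1*, against 107 and 108 FPKM in WT. Its excess in *pab2*Δ (0.24) was not called after TMM scaling (0.03), and its excess in *clr4-1* (0.15, adjusted p = 0.0279) missed the threshold without either WT library (adjusted p = 0.116 and 0.0931), without either *pab2*Δ library (0.0549 and 0.0546) and without *clr4-1* replicate 1 (0.0815).

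Phospholipid genes had a median log2 fold change of -0.0020 in *pab2*Δ and -0.17 in *clr4-1* as deposited, and -0.21 and -0.10 after TMM scaling. *SJAG_01470*, a phospholipid scramblase, was at 22.0 and 21.5 FPKM in *pab2*Δ, 12.7 and 10.9 FPKM in *clr4-1*, against 13.2 and 12.2 FPKM in WT, and it rose in *pab2*Δ (log2 fold change 0.73, SE 0.080, limma adjusted p = 0.000414). The methyltransferases that turn phosphatidylethanolamine into phosphatidylcholine were low in both mutants. *cho1* was at 137 and 140 FPKM in *pab2*Δ, 140 and 141 FPKM in *clr4-1*, against 191 and 187 FPKM in WT (-0.44 and -0.42, adjusted p = 3.95e-05 and 0.000255). *cho2* was at 36.4 and 36.2 FPKM in *pab2*Δ, 32.9 and 30.4 FPKM in *clr4-1*, against 40.8 and 42.0 FPKM in WT (-0.19 and -0.38, adjusted p = 0.0128 and 0.00245). For *cho2* the call in *pab2*Δ was lost without WT replicate 2 (-0.17, adjusted p = 0.0723), without either *pab2*Δ library (adjusted p = 0.057 and 0.0619) and with equal FPKM totals (0.018, adjusted p = 0.738), whereas the call in *clr4-1* was kept whichever library was left out.

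The parallel route to phosphatidylcholine and phosphatidylethanolamine starts from free choline and ethanolamine and ends at *ept1*, outside the 61. *ept1* was at 140 and 136 FPKM in *pab2*Δ, 69.1 and 68.9 FPKM in *clr4-1*, against 62.6 and 60.4 FPKM in WT (log2 fold change in *pab2*Δ 1.15, limma adjusted p = 2.83e-06). The list of 10 further phospholipid genes to which it belongs had 3 called higher and 5 lower in *pab2*Δ as deposited. The shares of all genes tested were 53.8% and 19.9%. After TMM scaling 2 were higher and 6 lower, against 32.8% and 34.5% of all genes. The 3 phosphatidylserine decarboxylase genes, which make phosphatidylethanolamine, did not move as a group. *psd3*, at 21.5 and 22.9 FPKM in *pab2*Δ, against 16.9 and 16.4 FPKM in WT, rose in *pab2*Δ by 0.40 on the log2 scale. *psd2* was at 45.8 and 46.0 FPKM in *pab2*Δ, 38.1 and 34.1 FPKM in *clr4-1*, against 47.7 and 44.3 FPKM in WT, lower in *clr4-1* (-0.34, adjusted p = 0.00912) except without WT replicate 1 (-0.29, adjusted p = 0.0568). *psd1* was not called as deposited in either mutant (-0.10 and 0.12).

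Both fatty acid synthase subunit genes stayed close to WT. *fas1* was at 63.7 and 65.9 FPKM in *pab2*Δ, 61.7 and 60.0 FPKM in *clr4-1*, against 60.7 and 62.5 FPKM in WT. *fas2* was at 60.5 and 61.4 FPKM in *pab2*Δ, 69.1 and 66.3 FPKM in *clr4-1*, against 63.7 and 64.2 FPKM in WT. *SJAG_01238* was at 234 and 246 FPKM in *pab2*Δ, 234 and 232 FPKM in *clr4-1*, against 243 and 251 FPKM in WT. Differences from WT as deposited were at most 0.08 on the log2 scale and were not called in either mutant (limma adjusted p between 0.102 and 0.719), although after TMM scaling all 3 were called lower in *pab2*Δ (-0.14, -0.28 and -0.25) and *fas2* higher in *clr4-1* (0.15).

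The enzymes that act on the synthase's product, outside the 61, moved further. *elo1*, a predicted fatty acid elongase gene, was at 123 and 132 FPKM in *pab2*Δ, 43.6 and 48.4 FPKM in *clr4-1*, against 53.0 and 48.6 FPKM in WT (log2 fold change in *pab2*Δ 1.31, limma adjusted p = 2.48e-05). *elo2*, of the same family, was at 367 and 384 FPKM in *pab2*Δ, 217 and 216 FPKM in *clr4-1*, against 194 and 198 FPKM in WT (0.94, adjusted p = 4.48e-06). *ole1*, the acyl-CoA desaturase gene, was at 205 and 202 FPKM in *pab2*Δ, 254 and 253 FPKM in *clr4-1*, against 284 and 288 FPKM in WT (-0.49, adjusted p = 1.52e-05). In the list of 12 fatty acid synthesis genes outside the 61 that holds these, 9 were called higher and 3 lower in *pab2*Δ as deposited. The shares of all genes tested were 53.8% and 19.9%. After TMM scaling 7 were higher and 3 lower, against 32.8% and 34.5% of all genes.

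Of the GPI anchor genes, *gpi12*, the predicted deacetylase of the second step of anchor assembly, was at 40.6 and 43.2 FPKM in *pab2*Δ, 32.7 and 31.0 FPKM in *clr4-1*, against 30.1 and 27.4 FPKM in WT. It rose in *pab2*Δ (log2 fold change 0.53, limma adjusted p = 0.000492). *gpi3*, a subunit of the first enzyme, was at 26.0 and 25.7 FPKM in *pab2*Δ, 23.1 and 23.1 FPKM in *clr4-1*, against 24.5 and 25.1 FPKM in WT, and was not called as deposited (adjusted p = 0.19 in *pab2*Δ and 0.0765 in *clr4-1*).

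Apart from the test, a rule of size was applied, a ratio above 2 or below 0.5 in all 4 pairings of a mutant with a WT library. In *pab2*Δ 3 lipid genes passed upwards (*erg32*, *SJAG_03935* and *SJAG_02068*), against 7.6% of the genes with a ratio, and 0 passed downwards (2.02%). In *clr4-1* 0 passed in either direction (0.796% and 1.18%). At 1.5-fold, 7 passed upwards (16%) and 2 downwards (5.04%) in *pab2*Δ, while in *clr4-1* 0 passed upwards (1.67%) and 1, *ale1*, downwards (3%). The genes next to the 3 that passed, by the order of the RefSeq annotation of assembly SJ5, did not show changes of that size. Beside *erg32*, *vps68* was at 154 and 153 FPKM in *pab2*Δ, against 105 and 102 FPKM in WT (log2 fold change 0.56, limma adjusted p = 6.43e-05), and *SJAG_03510* at 26.6 and 28.8 FPKM in *pab2*Δ, against 24.9 and 21.0 FPKM in WT. Beside *SJAG_02068* the log2 fold changes were 0.40 for *bot1* and 0.24 for *pol5*, and beside *SJAG_03935* -0.12 for *mob1*, while *SJAG_16236* was listed at 0 in *pab2*Δ and WT. Beside *erg1*, which was looked up after its value was seen, *pmp3* was at 1559 and 1575 FPKM in *pab2*Δ, 502 and 530 FPKM in *clr4-1*, against 624 and 609 FPKM in WT.

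In *clr4-1* the lipid genes changed little, and more often downwards. As deposited, 3 were called higher, against 15.1% of all genes tested, and 28 lower, against 27.5%. After TMM scaling 8 were higher (21% of all genes) and 20 lower (17.7%), and the same 3 and 20 genes were called at both scalings. With equal FPKM totals 3 were higher (12.6%) and 28 lower (29.3%). The median log2 fold change of the lipid genes was -0.13 as deposited and -0.069 after TMM scaling, below the median of all genes each time. Without WT replicate 2 the median of the lipid genes was -0.13, against -0.066 over all genes. Without *clr4-1* replicate 2 it was -0.14, against -0.058. Fewer lipid genes, and fewer of all genes tested, were called lower when either library was left out. Libraries of *clr4-1* and WT did not overlap for 40 genes with lower values in *clr4-1* (47.1% of all genes) and 10 with higher values (26.9%).

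By role, the genes that fell in *clr4-1* at both scalings were 10 of the 28 sterol genes, 5 of the 9 acyltransferases, 4 of the 13 phospholipid genes and 1 of the 6 sphingolipid genes, against 17.7% of all genes. The last was *cwh43*, a predicted glycosylceramide biosynthesis gene, at 44.0 and 43.5 FPKM in *clr4-1*, against 52.9 and 53.1 FPKM in WT (log2 fold change -0.27, limma adjusted p = 0.00179). *ale1*, *lac1*, *cho1*, *osh42* and *cho2*, described above, were among the genes with the largest falls. *dga1*, the diacylglycerol acyltransferase gene that completes storage triacylglycerol, was at 24.0 and 22.6 FPKM in *clr4-1*, against 32.8 and 30.5 FPKM in WT (-0.42, SE 0.055, adjusted p = 0.00297), and at 32.0 and 30.4 FPKM in *pab2*Δ. *ymr1*, a predicted phosphatidylinositol-3-phosphatase, was at 24.3 and 27.1 FPKM in *pab2*Δ, 18.8 and 16.8 FPKM in *clr4-1*, against 22.8 and 22.3 FPKM in WT. Its call in *clr4-1* (-0.33, adjusted p = 0.0175) was lost without either WT library (adjusted p = 0.09 and 0.0754) and without *clr4-1* replicate 2 (adjusted p = 0.0835).

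**Figure D5:**
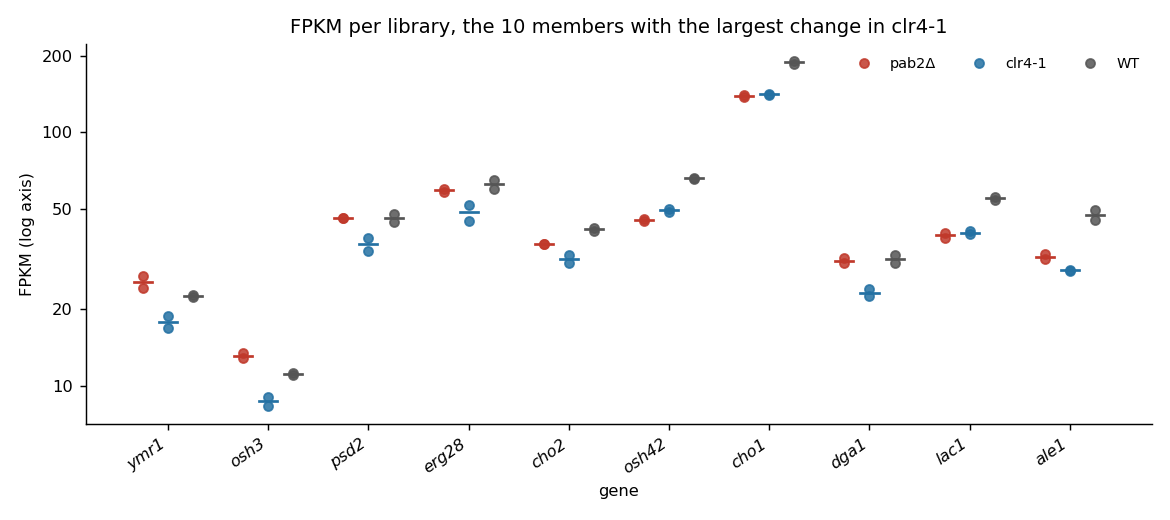
FPKM in each library (points, log axis) and strain mean (bars) for the 10 lipid genes with the largest called change in *clr4-1* vs WT, all of them lower in *clr4-1*. *ale1*, *lac1*, *cho1*, *osh42* and *cho2* lie below WT in *pab2*Δ as well, while *dga1* and *psd2* overlap WT in *pab2*Δ.

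Both mutants were set against the same WT libraries, so a call in one strain is not independent of a call in the other. As deposited, 12 lipid genes were called lower in both strains (7.16% of all genes) and 3 higher in both (8.47%), namely *SJAG_02068*, *erg2* and *kei1*. Another 7 were higher in *pab2*Δ and lower in *clr4-1* (12.8%), and 10 were called in neither (16.8%). Set directly against each other, *pab2*Δ was higher than *clr4-1* in 38 lipid genes as deposited (61.1% of all genes) and lower in 8 (17.4%). After TMM scaling it was higher in 18 (34.4%) and lower in 24 (34.5%), and 4 genes had opposite calls at the 2 scalings. With equal FPKM totals it was higher in 54 (77.3%) and lower in 4 (10.2%). The libraries of the mutants did not overlap for 45 genes with higher values in *pab2*Δ (68.4%) and 10 with lower values (21.6%). Past 2-fold in all 4 pairings of libraries, 2 genes were higher in *pab2*Δ (8.4%) and 0 lower (2.2%), and past 1.5-fold 10 were higher (20.8%) and 2 lower (5.37%). The median log2 difference of the lipid genes was 0.19 as deposited and -0.080 after TMM scaling, against 0.27 and 0.0081 for all genes.

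The largest differences between the mutants were those of the genes that stood apart in *pab2*Δ. They were 1.86 on the log2 scale for *erg32* (SE 0.047, limma adjusted p = 1.93e-06), 1.55 for *SJAG_03935*, -0.92 for *erg10* (adjusted p = 3.39e-05), 0.87 for *oss1* and 0.84 for *SJAG_01470*. For *erg1* the difference was -0.82 (adjusted p = 1.09e-05). All 6 kept their direction and call after TMM scaling and with equal FPKM totals.

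Over all 66 lipid pathway genes listed outside the 61, 34 were called higher and 15 lower in *pab2*Δ as deposited, against 53.8% and 19.9% of all genes, and 21 and 27 after TMM scaling, against 32.8% and 34.5%. In *clr4-1* 4 were called higher and 28 lower as deposited, against 15.1% and 27.5%, and 5 and 18 after TMM scaling, against 21% and 17.7%. In bulk values a change in marker genes cannot tell cells entering sexual differentiation from more or less RNA per cell. Such genes were checked with that limit. Their summed level over 8 genes was 80.0 and 78.6 FPKM in *pab2*Δ, 37.0 and 38.2 FPKM in *clr4-1*, against 61.7 and 63.5 FPKM in WT, and none of the 8 was listed at 0. Without *spo5*, left out after its values were seen, the sums were 64.0 and 63.3 FPKM in *pab2*Δ, 35.2 and 36.2 FPKM in *clr4-1*, against 60.2 and 61.96 FPKM in WT. As deposited, 4 of them were called higher in *pab2*Δ, against 53.8% of all genes, *spo5* most (16.0 and 15.4 FPKM, against 1.54 and 1.5 FPKM in WT). *mei2* was lower, and *ste11*, *map2* and *bgs2* were not called (limma adjusted p = 0.566, 0.123 and 0.356). After TMM scaling *spo5* and *mei4* were still called higher but *mam2* and *spo6* were not (limma adjusted p = 0.159 and 0.204). In *clr4-1* *ste11*, *mei2*, *mam2* and *bgs2* were lower. The part of cells entering sexual differentiation in the lipid gene values was not tested.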

How the data were processed

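Total RNA from vegetative *pab2*Δ, *clr4-1* and WT cells was sequenced with a strand-specific kit, 2 libraries per strain. The authors deposited 1 table of FPKM values per gene and library. The table does not state the unit, which was read from its values and column names. The submitters' processing notes name FastQC 0.11.6, STAR 2.5.3a and StringTie 1.3.1c, while the genome build, annotation and handling of reads shared between genes are not given in the sources used here. Low values were whole multiples of a common step in 3.23% to 4.84% of cases. Since FPKM is divided by transcript length, genes share no such step and this check could not recover read counts. Counts and depth remain unknown. Ratio columns computed by the authors were not used.

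Log2(FPKM + 1), whose fold changes understate those of low genes, was tested with limma 3.58.1 (R 4.3.3) over all 6 libraries, with an intensity trend and Benjamini-Hochberg adjustment over the 4899 genes averaging 1 FPKM or more. The test was also run on simulated data with no shift between libraries, which cannot bear on calls that depend on the scaling. Other settings tried were a pseudocount of 0.1 or 5, dropping the filter or raising it to 5 FPKM, TMM factors without weights (30% of log ratios and 5% of levels trimmed), equal FPKM totals, no trend, 4-library fits, a replicate block, fold rules of 1.5, 2 and 3, and leaving out each library. The fold rule of 3, calls shared by scalings and shares within gene pairs were chosen after seeing the data. All 61 genes matched the RefSeq table of assembly SJ5 by locus tag. It was used for names and neighbours only, and coordinates are not given.

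Genes described individually were all *erg* members, the 10 largest called changes in each mutant, the 5 largest between mutants, genes passing the 2-fold rule and the highest WT gene of each role. Others named were chosen after their values were seen. Members and lists were chosen with earlier results of these data known. P-values set a difference against the spread between the 2 biological replicates of a strain. That spread was estimated jointly over all 6 libraries and moderated across genes. Figures and sums used Python 3.11.15 with pandas 2.3.3, numpy 2.4.6, scipy 1.17.1 and matplotlib 3.10.9.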

Additional observations from a re-analysis of the deposited data

How the results depend on the processing

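Scaling had the widest effect. In *pab2*Δ vs WT, 17 lipid genes were higher and 29 lower after TMM scaling, and 43 higher and 8 lower with equal FPKM totals, against 71% and 11.5% of all genes. Median log2 fold changes were -0.092 after TMM scaling and 0.33 with equal totals in *pab2*Δ vs WT, -0.069 after TMM scaling in *clr4-1* vs WT, and -0.080 and 0.41 in *pab2*Δ vs *clr4-1*. Between the mutants, 18 were higher and 24 lower after TMM scaling, and 4 were lower with equal totals. In *clr4-1* vs WT, 8 were higher after TMM scaling. Among values called at one of the settings compared, the sign of the *pab2*Δ vs WT log2 fold change turned after TMM scaling for *erg4* (-0.17), *fas1* (-0.14), *gpi3* (-0.15) and *SJAG_04790* (-0.032), and with equal totals for *SJAG_01238* (0.17), *aur1* (0.0078), *cho2* (0.018), *dga1* (0.18), *erg24* (0.057), *erg5* (0.056), *erg6* (0.13), *erg9* (0.18), *fas2* (0.14), *osh2* (0.058), *pps1* (0.20), *psd2* (0.20) and *slc1* (0.15). The cause was not tested, and FPKM alone cannot tell which scaling is right.

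Fold rules call fewer genes by construction. At 1.5, 2 and 3-fold, 9, 3 and 1 lipid genes passed in *pab2*Δ vs WT. Of these, 7, 3 and 1 were higher and 2, 0 and 0 lower. In *clr4-1* vs WT 1, 0 and 0 passed (all lower). Between the mutants 12, 2 and 1 passed (10, 2 and 1 higher, and 2, 0 and 0 lower). Past 3-fold, the shares of all genes higher and lower were 4.39% and 0.96% in *pab2*Δ vs WT. They were 0.51% and 0.49% in *clr4-1* vs WT, and 4.29% and 1.28% between the mutants. Leaving out 1 library gave 37 to 42 calls in *pab2*Δ vs WT (24 to 27 higher, 13 to 15 lower), 18 to 29 in *clr4-1* vs WT (2 to 4 higher, 16 to 27 lower) and 40 to 46 between the mutants (33 to 38 higher, 6 to 8 lower), with medians of 0.068 to 0.12, -0.14 to -0.13 and 0.19 to 0.25. Over all genes tested, too, fewer were called in each comparison when any library was left out. With the replicate block, *clr4-1* vs WT had 19 calls, 1 higher (11.7% of all genes) and 18 lower (16.9%). Deviations of same-numbered WT and *clr4-1* libraries had a correlation of -0.094 over 4899 genes, so no strong shared effect of the replicate number was seen. A single correlation cannot decide whether the libraries were paired. No paired analysis was made for *pab2*Δ, whose columns carry no replicate number. The authors' numbered ratio columns were not used to order them.

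Of 2109 values of single genes under these alternatives, 1794 kept their direction and side of the threshold, 236 lost the call, 32 gained one, and 17 changed sign where the value was called as deposited or under the alternative. A further 30 changed sign with no call on either side, 5 of them after TMM scaling and 3 with equal totals in *pab2*Δ vs WT. Of the 128 results followed, those between the mutants were only the 5 largest differences and *erg1*. The 4 genes with opposite calls there, as deposited and after TMM scaling, were not among them. Fold rules of 1.5 and 2 gave 63 and 74 of the lost calls. Changing the filter, the trend or a library of the third strain could not alter a log2 fold change. The totals therefore do not measure how robust the calls are. With 2 libraries per strain and no read counts, differences near the replicate spread of low genes were not resolved.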
